A study of Mus musculus with 2 samples.

Results

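The genes for 9 red cell surface proteins, Gypc, Kel, Xk, Rhd, Rhag, Ermap, Icam4, Aqp1 and Tspan33, were examined for open chromatin in the mouse erythroid line G1E. They were chosen by name out of 21938 protein-coding genes, placed with the GENCODE M21 annotation of mm10, and given every accessible region that overlapped the gene body or lay within 50 kb of it. This gave 63 of the 25799 regions of the series. Of these, 33 were listed in both replicates, 17 in replicate 1 alone and 13 in replicate 2 alone.

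Chromatin was assayed by ATAC-seq, which uses a transposase to cut exposed DNA and tag its ends for sequencing. There was 1 group of 2 biological replicates with 50000 cells each, labelled as a male C57BL/6J G1E line of postnatal origin, age 0 day, with no treatment named, and described there as a Gata1- erythroid progenitor. G1E cells lack GATA1, the factor that drives terminal red cell maturation, so the line shows these genes in arrested progenitors and in no mature red cell. The labels do not state whether the replicates were grown apart, no other condition was measured, and no statistical test was made.

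Red cell surface proteins carry the blood group antigens and tie the membrane to the skeleton beneath it. Kell, a zinc endopeptidase encoded by Kel, is bound to the membrane protein XK, and the Rh protein encoded by Rhd sits in a complex with the Rh-associated glycoprotein encoded by Rhag. Many erythroid genes are controlled by GATA factors, which bind GATA motifs, often beside an E-box bound by TAL1 in a composite element. GATA2 is the GATA factor of early progenitors.

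At the starts of Kel, Rhag, Ermap and Icam4 the open region held a match to a composite pattern, which does not ask for a full E-box. None of these regions held an E-box match (CAGNTG or CACCTG) in 200 bp around the summit. The stretches are shown because they are what the promoter results turn on. Capitals mark matches to the GATA motif (AGATAA or AGATAG, and likewise with T as the first base) and to the composite (CTG, then 7 to 9 of any base, then GATA), each sought on both strands. The matches can overlap each other, and one on the opposite strand reads as TATC followed by CAG. The sequences are from the reference genome in mm10 coordinates, 5′ to 3′ on the strand given. The last one, from the RefSeq promoter table for GRCm38.p6, lies before the start of Rhd. The Icam4 composite lies in the 5′ UTR and that of Rhag spans the start, so these are given as the site alone.
Kel promoter, chr6:41704340-41704444, minus strand: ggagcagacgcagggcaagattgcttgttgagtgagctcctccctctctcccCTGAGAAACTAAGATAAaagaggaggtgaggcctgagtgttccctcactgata
Rhag promoter, chr17:40811005-40811125, plus strand: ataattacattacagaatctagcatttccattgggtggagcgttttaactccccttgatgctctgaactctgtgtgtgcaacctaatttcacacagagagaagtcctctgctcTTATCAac
Rhag site across the start, chr17:40811119-40811134, minus strand: CTGTATAGTGTTGATA
Ermap promoter, chr4:119190012-119190134, minus strand: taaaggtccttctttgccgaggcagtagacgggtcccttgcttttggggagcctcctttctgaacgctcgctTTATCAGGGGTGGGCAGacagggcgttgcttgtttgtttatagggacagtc
Icam4 site after the start, chr9:21029390-21029405, minus strand: CTGGCCGCAGGAGATA
Rhd upstream of the start, chr4:134864416-134864535, plus strand: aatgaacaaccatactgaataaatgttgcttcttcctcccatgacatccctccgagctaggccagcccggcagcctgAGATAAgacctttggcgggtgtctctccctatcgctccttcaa

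In Kel, Ermap and Rhag the composite ended within 40 bases before the start or ran across it. It lay 53 to 38 bases before the start in Kel, 50 to 35 bases before it in Ermap, and from 7 bases before to 8 after it in Rhag. In Icam4 it lay 17 to 32 bases after the start. Gypc, which encodes glycophorin C and the Gerbich antigens, had one 111 to 96 bases before its start. The spacer between CTG and GATA was 9 bases in each of these 5 promoters. The Rhd stretch held a GATA match 43 to 38 bases before the start and no composite. A second GATA match of Kel runs from 5 bases before the start onto the first transcribed base and is not in capitals.

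Away from the starts, 7 further stretches are shown. The first 4 hold composites, and the other three hold GATA matches and no composite.
Xk 27.7 kb upstream, chrX:9244928-9245127, plus strand: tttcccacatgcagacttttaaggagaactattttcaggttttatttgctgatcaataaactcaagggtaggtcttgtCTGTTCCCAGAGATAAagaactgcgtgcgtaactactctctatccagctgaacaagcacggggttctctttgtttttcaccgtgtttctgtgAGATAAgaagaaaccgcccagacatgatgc
Xk intron, 26.0 kb into the gene, chrX:9298676-9298875, plus strand: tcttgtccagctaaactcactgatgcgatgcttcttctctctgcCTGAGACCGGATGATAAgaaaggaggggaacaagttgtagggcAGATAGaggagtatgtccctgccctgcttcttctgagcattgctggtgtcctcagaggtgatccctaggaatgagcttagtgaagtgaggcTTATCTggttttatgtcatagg
Tspan33 intron, 7.03 kb into the gene, chr6:29701149-29701348, plus strand: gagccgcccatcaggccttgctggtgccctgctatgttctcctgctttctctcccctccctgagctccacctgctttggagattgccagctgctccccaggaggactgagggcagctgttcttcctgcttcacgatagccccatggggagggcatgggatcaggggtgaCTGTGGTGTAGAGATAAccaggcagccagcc
Rhag 4.26 kb upstream, chr17:40806762-40806961, plus strand: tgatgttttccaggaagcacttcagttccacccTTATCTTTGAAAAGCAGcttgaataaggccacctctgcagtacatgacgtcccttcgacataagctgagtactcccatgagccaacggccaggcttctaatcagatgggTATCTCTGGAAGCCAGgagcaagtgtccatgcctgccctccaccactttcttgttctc
Rhag 58.4 kb past the start, chr17:40869473-40869672, plus strand: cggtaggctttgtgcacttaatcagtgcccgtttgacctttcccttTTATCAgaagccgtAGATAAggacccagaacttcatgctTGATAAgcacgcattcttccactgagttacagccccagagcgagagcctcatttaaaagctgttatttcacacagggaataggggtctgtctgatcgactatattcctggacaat
Rhd intron, 5.01 kb into the gene, chr4:134869445-134869644, plus strand: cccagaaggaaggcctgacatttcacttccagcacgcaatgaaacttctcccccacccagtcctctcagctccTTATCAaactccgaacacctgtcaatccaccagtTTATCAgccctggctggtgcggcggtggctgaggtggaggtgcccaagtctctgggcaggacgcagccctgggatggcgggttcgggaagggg
Kel 2.13 kb upstream, chr6:41706368-41706567, minus strand: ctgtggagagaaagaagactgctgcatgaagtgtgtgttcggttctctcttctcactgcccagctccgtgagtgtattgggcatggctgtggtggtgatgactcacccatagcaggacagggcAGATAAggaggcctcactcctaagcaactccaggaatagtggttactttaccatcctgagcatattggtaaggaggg

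Most of the 9 genes had an open region at their start. A promoter region is a region within 1000 bp of a transcript start of a protein-coding gene, and 7 of the 9 genes had one in replicate 1, in replicate 2 and in both. Over all protein-coding genes the share was 40.5% in replicate 1, 42.1% in replicate 2 and 38.8% in both. The 7 were Gypc, Kel, Xk, Rhag, Ermap, Icam4 and Tspan33, and the genes without one were Rhd and Aqp1. Ermap had 2 promoter regions, which makes 8 in all. The other 25 regions in both replicates were 15 promoters of neighbouring genes and 10 distal regions, meaning regions over 1000 bp from every annotated start. At the 9 genes 52.4% of regions were in both replicates, against 67.5% of all regions.

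**Figure D1:**
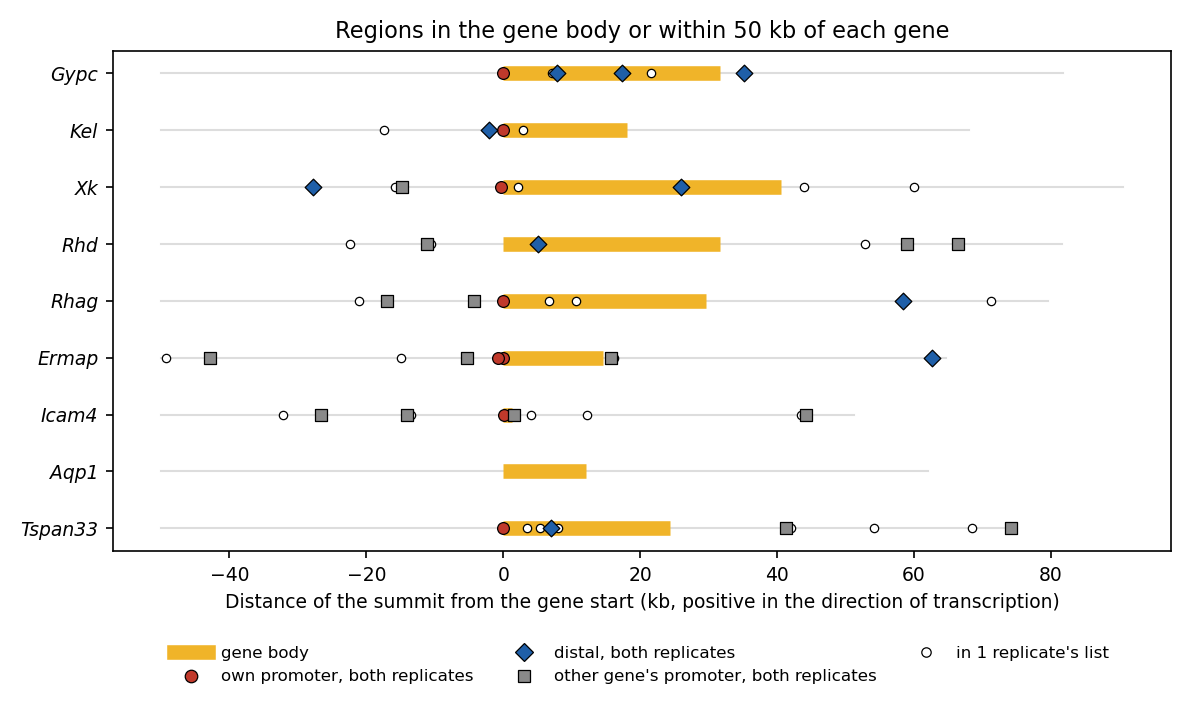
Positions of the 63 regions at the 9 genes, 1 row per gene, as distance of the summit from the gene start in kb. Bars are gene bodies, filled symbols are regions in both replicates by class, and open circles are regions in 1 list. Gypc has 3 distal regions in both, Icam4 has neighbours' promoters on either side, and the row of Aqp1 is empty.

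Glycophorin C links the membrane to the skeleton through protein 4.1, and Gypc had the most distal regions of the 9 genes. Gypc (chromosome 18, 32528322 to 32560034, minus strand) had a promoter region with a deposited signal of 10.3 in replicate 1 and 7.39 in replicate 2. The signal is the enrichment value that the authors' peak caller wrote for a peak, and it is not scaled between libraries. Its rank is therefore given as a percentile within each replicate's own list, here 69.0 and 34.0, so the promoter ranked above the median region in replicate 1 and below it in replicate 2. An intron region 17.4 kb into the gene ranked higher in both, at 12 and 11.9 (percentiles 80.6 and 73.4), and held 4 GATA matches and 1 composite. A second intron region at 7.85 kb had signals of 8.27 and 9.18 (percentiles 51.4 and 52.4). A region 35.2 kb past the start, beyond the gene's end, had 9.09 and 8.98 (percentiles 59.2 and 50.7). Each of these 2 held 2 GATA matches. A total of 3 or more distal regions in both replicates was found at 9.09% of protein-coding genes.

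Kel (chromosome 6, 41686330 to 41704339, minus strand) had a promoter region with signals of 10.7 and 8.25 (percentiles 72.2 and 43.8). It held 2 GATA matches and the composite shown above. A region 2.13 kb upstream had 8.16 and 10.6 (percentiles 50.5 and 64.3) and held a GATA match and an AP-1 and NF-E2 match (TGACTCA or TGAGTCA). The promoter thus ranked higher in replicate 1 and the upstream region higher in replicate 2. An intron region 2.90 kb into the gene was in the list of replicate 1 alone, at 3.88, and no other gene had a promoter region in both replicates within 50 kb of Kel.

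Xk, whose product partners Kell at the membrane, had a CpG-rich start with no GATA match in its region. The gene (chromosome X, 9272756 to 9313250, plus strand) had a promoter region at 8.59 and 7.47 (percentiles 54.9 and 34.7). A region 27.7 kb upstream, in an intron of the neighbouring gene Lancl3, had 13.1 and 11.0 (percentiles 86.3 and 67.6) and was the distal region with the highest signal in replicate 1 among the 9 genes. It held a composite with a spacer of 8 bases. An intron region 26.0 kb into Xk had 9.11 and 9.40 (percentiles 59.6 and 54.6) and held 3 GATA matches and a composite. Both distal regions of Xk outranked its promoter in both replicates. The remaining region in both replicates, 14.7 kb upstream at the start of Gm14862, had 7.41 and 6.58.

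The Rh genes differed at their starts. Rhd (chromosome 4, 134864536 to 134896172, plus strand), which encodes the Rh antigen carrier, had no promoter region in either thresholded list. The authors' more lenient lists held a region there in both replicates, from 134864409 to 134864688, at signals of 3.85 and 4.62. In the authors' list made from both replicates its IDR, the irreproducible discovery rate, which measures how far peaks keep their rank in a repeat, was 0.193. That value played no part in choosing regions here. Its summit lay 43 bases before the start, at the GATA match in the stretch shown above. Within the gene, an intron region at 5.01 kb was in both replicates at 6.64 and 7.22 (percentiles 32.2 and 32.1) with 2 GATA matches. The other regions in both replicates near Rhd were promoters of neighbouring genes, and all ranked above the intron region in both. Maco1, 11.1 kb upstream of the Rhd start, had 8.30 and 13.8, Rsrp1, 59.0 kb past it, had 8.05 and 11.4, and Syf2, which encodes a splicing factor, had 7.21 and 12 at 66.4 kb.

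Rhag (chromosome 17, 40811126 to 40840754, plus strand), whose product conducts ammonia and is needed for Rh proteins to reach the membrane, had a promoter region at 7.27 and 7.33 (percentiles 40.2 and 33.3). A region 4.26 kb upstream had 11.9 and 12.8 (percentiles 80.0 and 78.8), so it outranked the promoter in both replicates. It held 2 composites, and its deposited intervals had 2 summits in replicate 1 and 3 in replicate 2. It lies within 1000 bp of an annotated start of Crisp2, a gene for a secreted protein of sperm. It was therefore counted as that gene's promoter and not as distal. A further Crisp2 promoter, 17.0 kb upstream of Rhag, had 14.4 and 15.0. The distal region in both replicates lay 58.4 kb past the start and beyond the gene's end, at 5.13 and 6.03 (percentiles 12.9 and 17.4), with 3 GATA matches. In the Rhag introns, a region at 6.63 kb was in the list of replicate 2 alone at 5.71, and one at 10.6 kb in that of replicate 1 alone at 6.68.

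**Figure D2:**
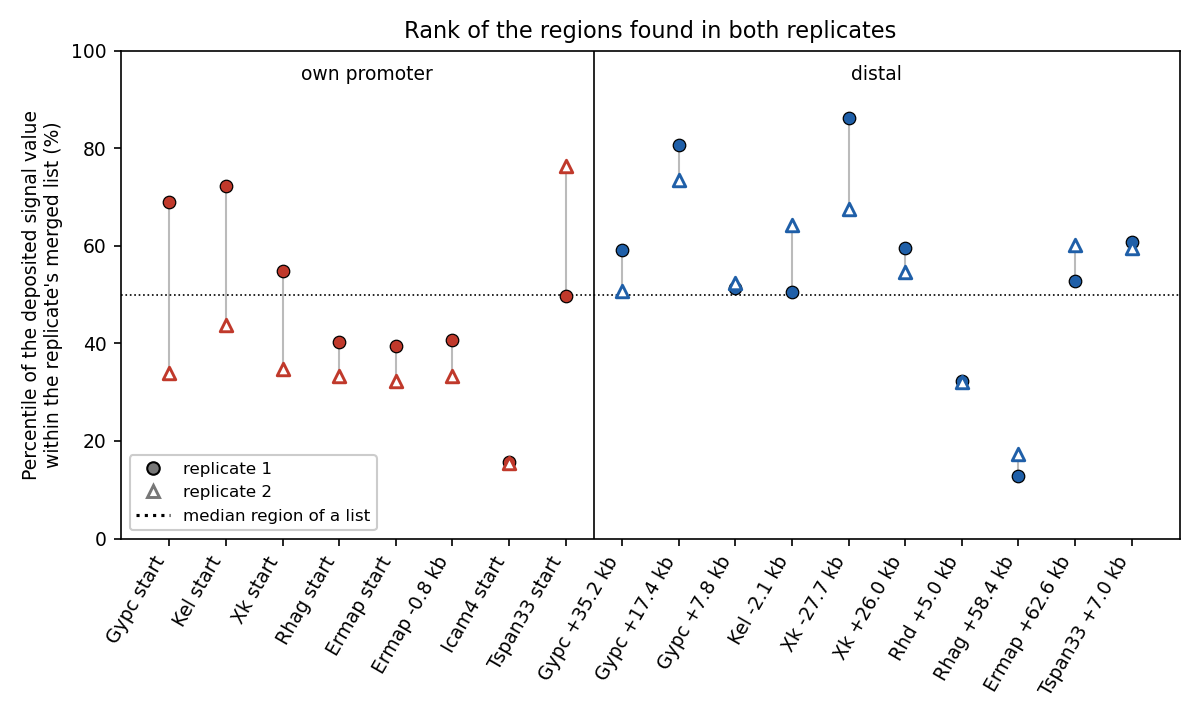
Percentile of the deposited signal within each replicate's merged list (%) for the 8 own promoter regions and the 10 distal regions in both replicates. Filled circles are replicate 1, open triangles replicate 2, and the dotted line is the median region of a list. No promoter region lies above the line in both replicates, and 8 distal regions do.

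The adhesion and immunoglobulin family members also had promoters below the median region, and those of Ermap ranked close to that of Rhag. Ermap (chromosome 4, 119175457 to 119190011, minus strand), which carries the Scianna antigens, had 2 promoter regions. The one at the start had 7.20 and 7.24 (percentiles 39.4 and 32.2), and the one 0.766 kb upstream had 7.32 and 7.34 (percentiles 40.7 and 33.4). Their signals were nearly equal, each held a GATA match, and the one at the start held the composite. A distal region 62.6 kb past the start of Ermap, in an intron of the glucose transporter gene Slc2a1, had 8.41 and 10.1 (percentiles 52.8 and 60.2) and no GATA match. The neighbouring promoters ranged widely. Zfp691 had 17.6 and 19.1 (percentiles 98.1 and 98.0), the promoter shared by AU022252 and P3h1 had 15.7 and 18.3, and Svbp had 4.20 and 4.83.

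Icam4 (chromosome 9, 21029373 to 21030595, plus strand) encodes the LW antigen, a ligand of integrins. Its promoter region had 5.43 and 5.80 (percentiles 15.7 and 15.4), which placed it lowest of the 8 own promoter regions in both replicates, with 2 summits in each list. It had no distal region in both replicates. The flanking Icam5 promoter had 8.87 and 6.89, and that of Icam1, which encodes a leukocyte adhesion receptor, had 4.37 and 5.57. Within the cluster the Icam4 promoter therefore ranked between those of Icam1 and Icam5 in both replicates. The Mrpl4 promoter had 6.21 and 5.68, and the one of Fdx1l and Gm49373 had 9.49 and 9.05.

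Aqp1 (chromosome 6, 55336432 to 55348555, plus strand), the water channel that carries the Colton antigens, had no region in either thresholded list in its body or within 50 kb. The nearest region in both replicates was the promoter of Ggct, 343 kb away, and the nearest in any thresholded list was at Gars, 298 kb away in replicate 2. The lenient lists held 1 region in its reach, 9.67 kb upstream in replicate 2 alone, at 4.03. Of all protein-coding genes, 68.2% had at least 1 region in both replicates in their reach. A region missing from a list is not thereby shown to be closed, since the depth of the libraries is unknown.

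Tspan33 encodes a tetraspanin that normal red cell production in mice requires. The gene (chromosome 6, 29694222 to 29718559, plus strand) had a promoter region at 8.10 and 12.4 (percentiles 49.8 and 76.4), which was the only one of the 8 to rank higher in replicate 2 than in replicate 1. An intron region at 7.03 kb had 9.28 and 9.97 (percentiles 60.8 and 59.6) and held a composite. Around it, 3 weaker intron regions were each in 1 list, at 3.50 kb with 5.78 in replicate 2, at 5.39 kb with 4.27 in replicate 2, and at 8.03 kb with 5.31 in replicate 1. The region at 3.50 kb also held a composite. Downstream, the promoter of Smo, a transducer of Hedgehog signals, had 5.90 and 7.98, and that of Ahcyl2 had 9.98 and 15.1. The Ahcyl2 region, 49.3 kb from the gene body, was the farthest one counted, and the nearest one left out was the promoter of S1pr2, 52.4 kb from Icam4, at 6.34 and 7.03.

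The promoters of the 9 genes ranked low and their distal regions did not. None of the 8 own promoter regions lay above the median signal in both replicates, against 62.2% of all promoter regions in both. Gypc, Kel and Xk were above it in replicate 1 alone, and Tspan33 in replicate 2 alone. Their median percentiles were 45.3 and 33.7, against 66.5 and 69.7 for all promoter regions in both replicates. Of the 10 distal regions, 8 lay above the median signal in both replicates, against 42.1% of all distal regions in both. The median percentiles of the 10 were 56.0 and 57.1 against 51.4 and 52.5. Some of the 8 lay only just above the median signal. The lowest percentiles among them were 50.5 at Kel in replicate 1 and 50.7 at Gypc in replicate 2. The distal regions below the median signal were those of Rhd and Rhag.

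At least 1 distal region in both replicates was found in the reach of 7 genes, against 38.8% of all protein-coding genes. Gypc had 3, Xk had 2, and Kel, Rhd, Rhag, Ermap and Tspan33 had 1 each, while Icam4 and Aqp1 had none. The median was 1 per gene, against 0 over all genes. The 38 genes of the other blood group list described further on had the same median, with at least 1 such region at 27 of them. Of the marker genes described further on, 9 of 10 erythroid progenitor genes and 5 of 8 granulocyte and macrophage markers had one. Lymphoid, endothelial and megakaryocyte markers had one at 4 of 8 each. Inside the gene body, Gypc, Xk, Rhd and Tspan33 had at least 1, which makes 4 of 9 against 12.7% of all genes. A longer body has more room for a region, and the lengths of these 4 genes ran from 24.3 kb in Tspan33 to 40.5 kb in Xk, against a median of 17.4 kb over all genes. The part of length in these counts was not tested.

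Motif matches were counted in 200 bp around the summit of each region in both replicates. Of the 8 own promoter regions, 6 held a GATA match (75.0%), against 16.5% of all 8538 promoter regions. The composite was in 5 of them (62.5%), against 5.28%. The promoters without a GATA match were those of Xk and Tspan33. Of the 10 distal regions, 9 held a GATA match (90.0%) against 68.9% of all 8227. The GATA share at the 9 genes was 68.0% of 25 distal regions with the lenient lists. It was 65.0% of 20 in the list of replicate 2 alone and 71.4% of 21 in that of replicate 1 alone. The 68.9% is for regions in both thresholded lists, and no share over all regions was taken for these other lists. Of the 10, 4 held a composite (40.0%) against 26.9%. The distal region without a GATA match was the one in Slc2a1. Distal regions at large thus often held a GATA match.

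**Figure D3:**
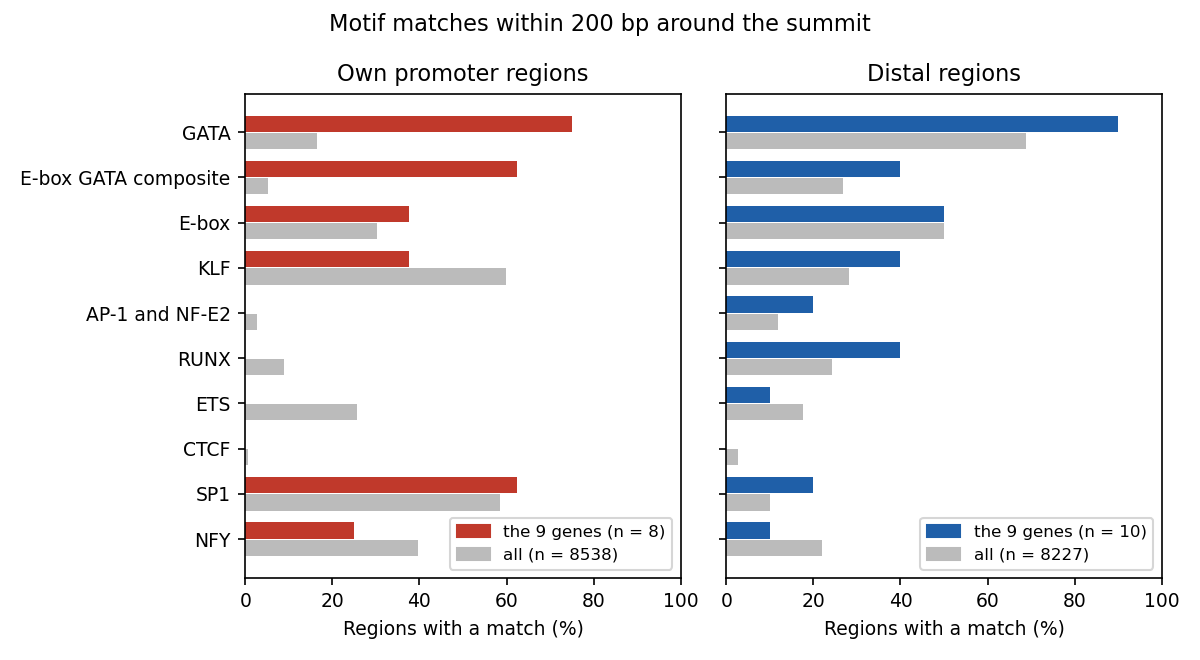
Share of regions in both replicates with a match in 200 bp around the summit (%), for the own promoter regions (left, n = 8) and distal regions (right, n = 10) of the 9 genes beside all regions of the class (grey). At the promoters the GATA bar reaches 75.0% beside 16.5% and the composite bar 62.5% beside 5.28%.

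No other motif, each sought on both strands, exceeded its background by as much at the promoters. An ETS match (CCGGAAG or AGGAAGT) was in 0 of 8 against 25.7%, a RUNX match (TGTGGT) in 0 against 8.89%, and an AP-1 and NF-E2 match in 0 against 2.82%. A KLF match (CCNCNCCC) was in 3 against 59.8%, an SP1 match (GGGCGG, which can overlap a KLF match) in 5 against 58.5%, and an NFY match (CCAAT) in 2 against 39.6%. An E-box (CAGNTG or CACCTG, which can overlap the composite) was in 3 against 30.3%, and the CTCF pattern, given here by name, in 0 against 0.644%. With 8 regions each share moves in coarse steps. A match is a description of letters and does not show that a factor was bound.

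Base composition also differed between these promoters and all promoter regions, and whether it bears on the motif counts was not tested. The median GC content of the motif windows was 53.2% in the 8 own promoter regions and 62.5% in all promoter regions. The ratio of observed to expected CpG, taken 500 bp either side of the start, was 0.0363 in Rhag, 0.0374 in Kel, 0.272 in Rhd, 0.291 in Ermap, 0.320 in Aqp1 and 0.445 in Icam4. It was 0.712 in Gypc, 0.790 in Tspan33 and 0.892 in Xk. The median was 0.552 over all protein-coding genes, 0.741 over those with a promoter region in both replicates and 0.280 over those with none. Of the 10185 genes with a ratio under 0.5, 12.6% had a promoter region in both, and of the 6 such genes here 4 did.

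**Figure D4:**
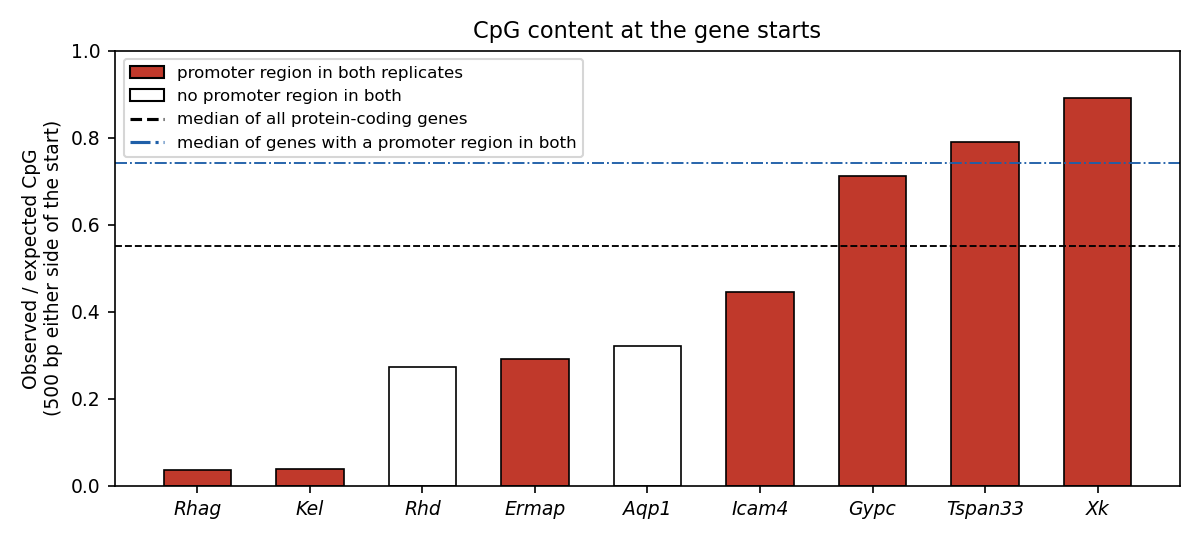
Observed to expected CpG ratio in 500 bp either side of the start of each gene, in rising order, with filled bars for genes with a promoter region in both replicates. The lines are the medians of all protein-coding genes (0.552) and of those with a promoter region in both (0.741). Rhag and Kel stand at 0.0363 and 0.0374 and are filled, while Rhd and Aqp1 are open.

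Among the 1349 promoter regions in both replicates at starts with a ratio under 0.5, 29.1% held a GATA match and 11.3% a composite. The 9 genes had 5 such regions, those of Kel, Rhag, Icam4 and Ermap, of which 5 held a GATA match and 4 a composite. Of these 1349 regions 52.6% ranked above the median signal in both replicates, with median percentiles of 59.2 and 61.4. In the RefSeq table of 32851 promoters, which run from 250 bases before the start to 50 after it and do not depend on the peak lists, 7.18% held a composite and 29.8% a GATA match. It held 8 of the 9 genes, of which Kel, Rhag, Ermap and Icam4 had a composite, and these 4 and Rhd had a GATA match.

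Among 38 other genes, most of them for blood group antigens or the enzymes that make them, 18 had a promoter region in both replicates. Among the 18 were Slc4a1, Cd47, Cd44, Cd55, Bsg, Art4, Cd151, Abcb6, Smim1, Slc29a1, Abcc4, Prnp, Pigg, Cr1l, Epb41, Cd99l2 and Slc2a1. Of these, the skeleton gene Epb41, the glucose transporter gene Slc2a1 and Cd99l2 are not antigen or enzyme genes of that kind. The 18 are 47.4% of the list, against the background of 38.8% given above. The highest ranks were at Cd99l2, with signals of 14.1 and 14.9, Cr1l, which encodes a complement regulator, with 14.5 and 13.2, and Slc2a1 with 12.9 and 14.4. In both replicates each of these ranked above every own promoter region of the 9 genes. The glycosyltransferase genes Abo, A4galt, Fut1, Fut2, Fut4, Gcnt2, B3galnt1, B4galnt2 and Gbgt1 had no promoter region in both.

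The 30 regions found in 1 list at the 9 genes ranked low, with a median percentile of 14.6 in replicate 1 and 13.1 in replicate 2 and highest values of 43.8 and 46.6. A lenient region of the other replicate overlapped 17 of them. The lenient lists held 20 further regions in reach, of which 5 were in both replicates. In the authors' list made from both replicates, 31 of the 33 regions in both passed an IDR of 0.05, taking the best value of any overlapping peak. The others were the promoters of Svbp at 0.0688 and Icam1 at 0.081. Of the 30 regions in 1 list, 14 passed the same limit.

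Promoters of marker genes were examined as well. These lists were chosen with earlier results of these data known, so they give no independent check of the line's identity. Of 10 erythroid progenitor genes, among them Klf1, Tal1 and Epor, 10 had a promoter region in both replicates, against 38.8% of all protein-coding genes. Granulocyte and macrophage, lymphoid and endothelial markers had 0 of 8 each in both, and megakaryocyte markers had 2 of 8, Itga2b and Gp1ba. The merged lists held 21194 regions in replicate 1 and 22620 in replicate 2, and since they give no read totals no counting error can be given.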

How the data were processed

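ATAC-seq peak lists of 2 replicates of 1 group were used. Per the labels, coordinates are mm10. Which aligner and which caller made the lists, and in what version, is not stated in the labels or headers used here. The authors' deposited lists give each peak a signal value and a −log10 p value, both as the peak caller wrote them, and a score. The deposited list made from both replicates gives 1 IDR per peak, as −log10. Signals were used to rank regions within a list, and −log10 p values were not used in the results.

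Overlapping or touching peaks of a replicate were merged, keeping the strongest summit (26083 and 27810 peaks gave 21194 and 22620 regions), and joined over replicates by 1 bp of overlap. Genes came from GENCODE M21 and sequence from RefSeq GRCm38.p6, the same build. Python 3.11.15, numpy 2.4.6 and pysam 0.24.0 were used. The counting was tested on simulated data. All 9 genes were named, with each region in both replicates. Of the other blood group list, those with a promoter region in both were named, with values for the 3 of highest mean percentile. Not every gene under this rule is reported here by name. Genes and lists were chosen with earlier results of these data known. The alternatives were the lenient lists, the stronger 50% of regions, each replicate left out, a reciprocal overlap of 50%, reaches of 20 and 100 kb, promoter windows of 500 and 2000 bp, other start sites and other motif windows. Depth is unknown, and the reads were not used here.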

Additional observations from a re-analysis of the deposited data

How the results depend on the processing

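Of 57 alternative values, 45 stayed within 1.5 times of the reported value or, for the share of distal regions with a GATA match, within its exact 95% binomial interval of 55.5% to 99.7%, which covers counting error only. That interval also holds 68.9%, the background over distal regions in both thresholded lists. The share at the 9 genes was 65.0% to 71.4% from 1 replicate's list and 68.0% from the lenient lists, for which no background was taken. The lenient lists gave 54 regions in both replicates at the 9 genes in place of 33, 25 distal regions in place of 10 and a median of 3 distal regions per gene in place of 1. They gave 8 genes with a promoter region in both, with Rhd added. The stronger 50% of regions gave 15 regions in both and 0 genes with a promoter region in both in place of 7. In the other blood group list it gave 11 such genes in place of 18. A reach of 100 kb gave a median of 2 distal regions. Using 1 replicate's list alone gave 46 to 51 regions, 20 to 21 distal regions and a median of 2, since a region then needs no partner. Leaving out either replicate gave the same 7 genes with a promoter region. The composite count of 5 in the own promoter regions did not change with the motif window, the spacer, the lenient lists or a replicate left out. It could not be formed from the stronger 50%. The count was out of 8 regions, and out of 9 with the lenient lists. A spacer of 8 to 9 bases could not change it, since all 5 matches have a spacer of 9 bases. A window of 400 bp around the same summit can only add matches. These alternatives for the composite, and CpG ratios of 0.4 and 0.6, were chosen after seeing the data. No paired analysis was possible because the series holds 1 group. Depth is unknown, so weak regions missing from a list cannot be told from closed ones.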
